A study of Mus musculus with 5 samples.

Results

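Skin of 16 female SKH-1 hairless mice was compared 7 days after nanosized zinc oxide (nZnO) had been applied to the upper back, in 8 mice whose skin had first been brushed and in 8 mice whose skin was intact. These are all the mice of 2 of the 19 groups of a series of 153 mice, and they were assigned by the group row of the count table. The brushed group (the nZnO and scratching group of the study) received strokes with a metal brush and then a dispersion of the ZnO particles in phosphate-buffered saline, and the intact group received the same dispersion without the strokes. All mice were of the same strain and 7 to 8 weeks old, so the brushing is the labelled difference between the groups. Other groups used below for single comparisons were nanosized silver (nAg) and titanium dioxide (nTiO2) on brushed and intact skin, saline (PBS) on brushed and intact skin, and brushed skin alone, 8 mice each at 7 d. Also used were nZnO on brushed and intact skin at 24 h (8 mice each) and naive skin (9 mice, whose group name gives no time). Gene expression was measured by 3′ RNA sequencing of whole upper back skin, with counts of unique molecular identifiers (UMIs) per gene.

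Hairless SKH-1 mice lose their coat early in life but keep a full-thickness skin, which makes a superficial scratch easy to apply. Repair of such a scratch runs from an early inflammatory phase to a later phase in which fibroblasts lay down and remodel extracellular matrix with the help of matrix metalloproteinases. Zinc released from ZnO particles is bound in cells by metallothioneins and moved by zinc transporters, so these genes are the usual reporters of a zinc load. Skin cells also run a circadian clock in which the activator BMAL1 (gene Arntl) and its partner CLOCK drive their own repressors and a set of output genes such as Dbp and Tef.

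The total count was 993880 to 2837756 UMIs in brushed nZnO mice and 813175 to 2071225 UMIs in intact nZnO mice, and the RNA integrity number was 8.1 to 9.6 in brushed and 8.4 to 8.6 in intact nZnO mice. No difference in either measure was found by an exact two-sided permutation test (adjusted p = 0.677 for both, over 3 measures). Mitochondrial transcripts took 1.1% ± 0.165 of the counts in brushed and 1.37% ± 0.217 in intact nZnO mice (SD, n = 8 each), a difference that passed the same test (adjusted p = 0.0499, and 0.0555 on the log2 scale). The skin markers Krt5, Krt14, Krt10 and Col3a1 were present in all 16 mice. Levels are in counts per 1000000 counts of the mouse (CPM), and Krt14 was at 1514 to 2923 CPM (median 2489.6) in brushed nZnO mice and 1879 to 3248 CPM (median 2446) in intact nZnO mice. The mice were sequenced in pool 4 (4 brushed and 5 intact) and pool 5 (4 brushed and 3 intact), and pool was a term of the fit. Of the intact mice, replicate 7 is listed in the sample information as scratched, although its name, the group row and the barcode table call it intact, and the main counts are therefore also given without it. Cage was not modelled, so p-values measure the spread between mice within these groups.

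A small share of the genes differed between brushed and intact nZnO skin at 7 d. Of 11760 genes tested, 98 were differentially expressed (0.833%), of which 57 were higher (0.485%) and 41 lower (0.349%) in brushed nZnO skin, by edgeR's quasi-likelihood test. A gene counted as differentially expressed (called) where the adjusted p was below 0.05 and the log2 fold change was 0.33 or more in size. A gene entered the test with more than 5 counts in 6 or more of 8 mice of either group, and 629 of the 11760 passed through the brushed mice alone (5 of the 57 higher genes) and 238 through the intact mice alone (3 of the 41 lower genes). The fold changes of these genes lay between −2.17 and 2.44 on the log2 scale, and 25 of them were at least 1 in size. The levels of the brushed and intact mice did not overlap for 27 genes (0.23% of those tested), and 21 of these were among the 98 genes (18 higher and 3 lower in brushed skin). The 18 include Prss35, Fbn2, Per3 and Cd40, which passed through the brushed mice alone, so their separation is not read. Without the intact mouse of conflicting labels 101 genes were called, 44 of them higher and 57 lower, and 75 of the 98 genes remained. Of the genes named here as called, those above 0.05 without that mouse were Tnc (adjusted p = 0.0538), Mmp11 (0.0572), Sox9 (0.0642), Sprr2d (0.0645), Mmp14 (0.0788), Tlr7 (0.0831), Thy1 (0.0831), mt-Nd5 (0.0872), Col5a1 (0.0879), Bmp1 (0.092) and Il10rb (0.0993). All 98 kept their direction with any 1 mouse left out, and 35 were called each time. Without brushed replicate 2, whose skin stood apart in muscle transcripts and in RNA integrity number, 258 genes were called (104 higher and 154 lower), and without brushed replicate 4 or intact replicate 5 there were 41 and 42. When each pool was tested alone, no gene was called in pool 4 (1008 genes had an unadjusted p under 0.05) and 14 were called in pool 5. Of 49 called genes followed in both pools, the log2 fold changes of the pools differed by over 1.5 times for 17.

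Among the called genes were several for extracellular matrix and for the enzymes that build or cut it, although most members of the matrix lists were not called. Cthrc1, a secreted protein that fibroblasts make in injured tissue (GRCm39 chr15:38940246-38950518), was at 64.7, 116 and 208 CPM (lowest, median and highest) in brushed nZnO mice, against 8.89, 38.6 and 71.3 CPM in intact nZnO mice. 1 brushed mouse and 1 intact mouse overlapped, and the log2 fold change was 1.60 ± 0.24, adjusted p = 0.00259. 4 genes named as called, Prss35, Fbn2, Per3 and Cd40, entered the test through the brushed mice alone, where they were high, so their levels and fold changes are given as a description and their p-values and separation are not read. Prss35, a secreted trypsin-like protein (chr9:86617045-86640606), was at 13.3, 17.5 and 38.9 CPM (lowest, median and highest) in brushed nZnO mice, against 0.772, 3.62 and 6.34 CPM in intact nZnO mice (log2 fold change 2.44 ± 0.28). Fbn2, the microfibril protein fibrillin-2, was at 9.32, 14.3 and 18 CPM in brushed nZnO mice, against 3.95, 5.35 and 7.38 CPM in intact nZnO mice (log2 fold change 1.33 ± 0.19).

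**Figure D1:**
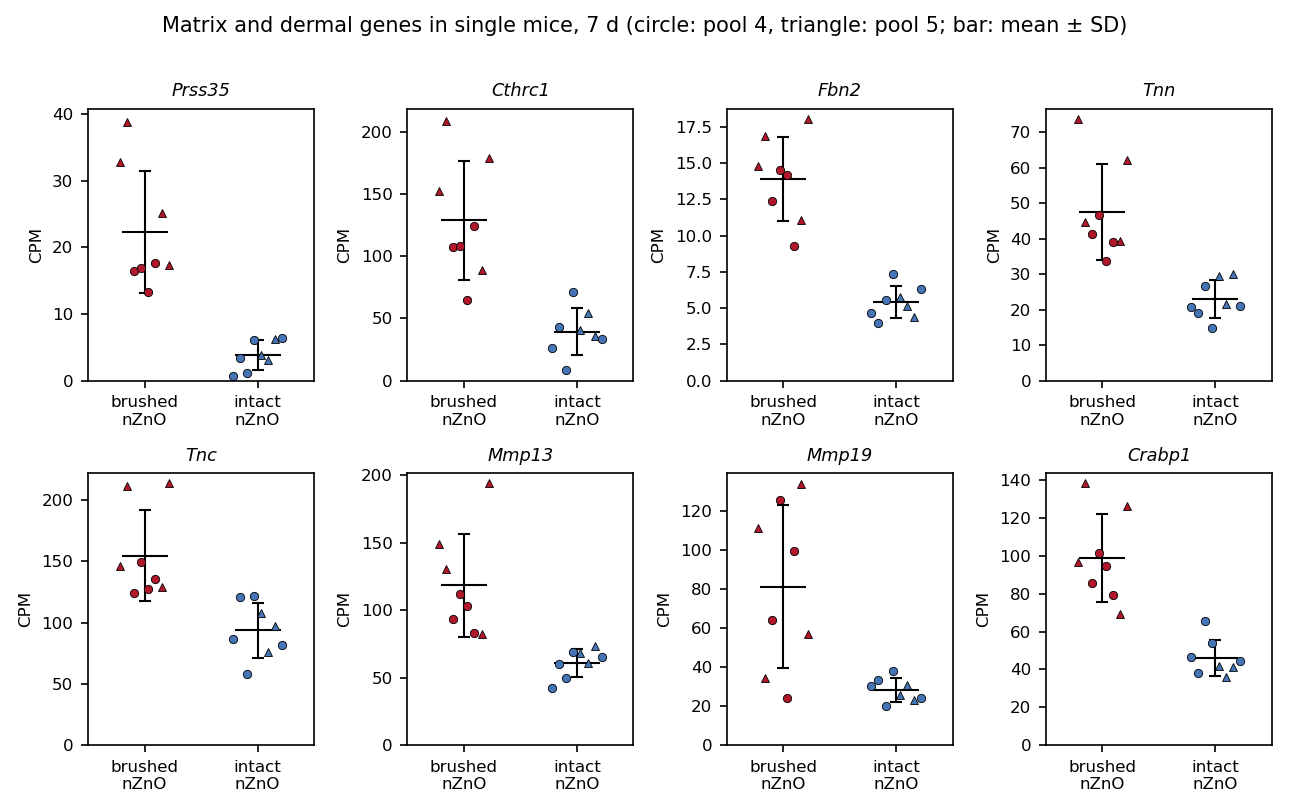
Level of 8 matrix and dermal genes in each mouse at 7 d, in CPM on a linear axis from 0, for brushed nZnO (left, red) and intact nZnO (right, blue); circles are mice of pool 4, triangles mice of pool 5, and bars the mean ± SD of 8 mice. Brushed and intact mice are apart for Tnn, Tnc, Mmp13 and Crabp1, and overlap for Cthrc1 and Mmp19. Prss35 and Fbn2 entered the test through the brushed mice alone, so their separation is not read.

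Tenascin-N (Tnn) was at 33.7, 43 and 73.6 CPM (lowest, median and highest) in brushed nZnO mice, against 14.8, 21.4 and 30.1 CPM in intact nZnO mice, and the groups did not overlap (log2 fold change 0.95 ± 0.14, adjusted p = 0.00207). Tenascin-C (Tnc) was also apart, with 124 to 214 CPM (median 141) in brushed nZnO mice and 57.8 to 122 CPM (median 91.9) in intact nZnO mice (log2 fold change 0.64 ± 0.14, adjusted p = 0.0299). The call of Tnc held in 9 of the 16 fits that left out 1 mouse. Thbs2, which encodes thrombospondin 2, a matrix protein that restrains vessel growth, overlapped in 2 mice of each group, with 90.4 to 180.1 CPM (median 130.2) in brushed nZnO mice and 58.1 to 108 CPM (median 77.7) in intact nZnO mice (log2 fold change 0.69 ± 0.12, adjusted p = 0.00851). Ccn5, a matricellular protein of the CCN family, averaged 34.3 ± 11.5 CPM in brushed and 15.8 ± 4.21 CPM in intact nZnO mice (SD, n = 8 each) and its log2 fold change was 1.03. Of the list of 24 tested wound-induced matrix genes, 4 were called higher (Cthrc1, Fbn2, Thbs2 and Tnc) and 0 lower, against 0.485% and 0.349% of all genes, 8 had an unadjusted p under 0.05 with a higher level and 0 with a lower one, against 7.32% and 7.9%, and the median log2 fold change was 0.27, against −0.0064 over all genes. Among the 22 that entered through both groups 3 were called and the median was 0.26.

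2 collagen genes and several genes of collagen processing were also higher. Col7a1, which forms the anchoring fibrils between epidermis and dermis, was at 26.6, 32.5 and 38.9 CPM (lowest, median and highest) in brushed nZnO mice, against 13.4, 19.8 and 23 CPM in intact nZnO mice. Its groups did not overlap (log2 fold change 0.69 ± 0.13, adjusted p = 0.0146). Col5a1, the chain that starts fibril assembly, had a log2 fold change of 0.53 ± 0.12, adjusted p = 0.0445 with 3 brushed and 3 intact mice overlapping, but its call held in only 4 of the 16 fits that left out 1 mouse. Of 24 collagen and cross-linking genes tested, these 2 were called (0.485% of all genes were called higher), 21 had a positive fold change (5741 of 11760 over all genes) and 13 were higher at an unadjusted p under 0.05 (7.32% over all genes), with a median of 0.33. Further called genes act on collagen or microfibrils. Fkbp10, a prolyl isomerase of procollagen, averaged 27.6 ± 8.33 CPM in brushed and 13.3 ± 4.12 CPM in intact nZnO mice (log2 fold change 1.04). Bmp1, the procollagen C-proteinase, averaged 59.9 ± 11.4 CPM in brushed and 40.5 ± 7.12 CPM in intact nZnO mice (log2 fold change 0.50), and Mfap2, a microfibril component, averaged 106 ± 28.6 CPM in brushed and 60.9 ± 14.3 CPM in intact nZnO mice (log2 fold change 0.75). The calls of Bmp1 and Mfap2 held in 5 and 11 of the 16 fits that left out 1 mouse.

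4 matrix metalloproteinase genes were higher in brushed skin. Of 14 tested genes for metalloproteinases, their tissue inhibitors and ADAMTS proteases, all 14 had a positive log2 fold change (median 0.41), 10 had an unadjusted p under 0.05 (7.32% of all genes had one and were higher) and 4 were called (0.485% of all genes were called higher). Among the 13 that entered through both groups 4 were called and the median was 0.41. Mmp13, the main interstitial collagenase of the mouse (chr9:7272514-7283331), was at 82.5, 107 and 194 CPM (lowest, median and highest) in brushed nZnO mice, against 42.5, 63.1 and 73.4 CPM in intact nZnO mice. The groups did not overlap (log2 fold change 0.85 ± 0.14, adjusted p = 0.00322). Mmp19, which cleaves basement membrane proteins, had the largest change of the list (1.49) but a wide spread, with 23.9 to 134 CPM (median 82) in brushed nZnO mice and 20 to 38.1 CPM (median 27.9) in intact nZnO mice. 2 brushed mice, 1 of each pool, lay within the intact range, and with the muscle level as a covariate its adjusted p was 0.114 with a log2 fold change of 1.18. Mmp11 averaged 34.1 ± 16 CPM in brushed and 14.1 ± 4.43 CPM in intact nZnO mice (log2 fold change 1.25), and the membrane-bound Mmp14 averaged 492 ± 75.8 CPM in brushed and 354 ± 41.6 CPM in intact nZnO mice (log2 fold change 0.40), with its call kept in 8 of 16 fits that left out 1 mouse.

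Of 20 tested fibroblast genes only Crabp1 and Thy1 were called, and the median of the list was 0.07, against −0.0064 over all genes. Crabp1, the cellular retinoic acid-binding protein of dermal fibroblasts, was at 69.4, 95.9 and 139 CPM (lowest, median and highest) in brushed nZnO mice, against 36, 43.2 and 65.6 CPM in intact nZnO mice, with the groups apart (log2 fold change 1.07 ± 0.15, adjusted p = 0.0017). Thy1, a surface protein of fibroblasts and T cells, averaged 160.3 ± 15.1 CPM in brushed and 121 ± 15.7 CPM in intact nZnO mice, and its call held in 6 of the 16 fits that left out 1 mouse. The general fibroblast markers Pdgfra and Col1a1 were not among the called genes, and Col1a1 was 387 to 708 CPM (median 599.6) in brushed nZnO mice and 356 to 753 CPM (median 438) in intact nZnO mice. In whole skin, more cells of a type and more RNA per cell cannot be told apart.

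Clock genes changed in both directions. Of 15 tested clock genes, 5 were called higher (Dbp, Per3, Tef, Nr1d1 and Nr1d2) and 1 lower (Arntl) in brushed nZnO skin, against 0.485% and 0.349% of all genes, and the median log2 fold change was 0.42. Among the 14 that entered through both groups 4 were called higher and 1 lower, with a median of 0.41. In the clock, CLOCK and BMAL1 bind E-boxes, the output factors DBP and TEF bind D-boxes, and the repressors NR1D1 and NR1D2 bind ROR elements (ROREs) in genes such as Arntl itself. RefSeq promoter windows (250 bases before to 50 after each start, 32851 windows of GRCm38.p6) were searched on both strands for the letters CACGTG (E-box), TTATGTAA (D-box) and TAGGTCA (RORE), and for TGANTCA (the site of AP-1, a factor of injured epidermis). The 30 bases around each match in the called clock genes and in Mmp13 were placed in GRCm39 by exact match and are shown because they hold the binding letters named for this loop. Capitals mark the match, and each is read 5′ to 3′ on the strand of the gene.
Tef, E-box, chr15:81686735-81686764, plus strand: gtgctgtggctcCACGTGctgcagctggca
Tef, E-box, chr15:81695465-81695494, plus strand: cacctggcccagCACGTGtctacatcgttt
Per3, D-box, chr4:151129309-151129338, minus strand: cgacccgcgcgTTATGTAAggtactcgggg
Per3, D-box, chr4:151129262-151129291, minus strand: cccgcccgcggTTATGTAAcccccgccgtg
Arntl, RORE, chr7:112806737-112806766, plus strand: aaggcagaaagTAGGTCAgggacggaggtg
Mmp13, AP-1, chr9:7272468-7272497, plus strand: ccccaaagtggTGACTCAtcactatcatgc

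The E-box letters stood 127 and 138 bases before the 2 starts of Tef, the D-box letters 205 and 158 bases before the start of Per3, the RORE letters 30 bases after a start of Arntl, and the AP-1 letters 35 bases before the start of Mmp13. An E-box was present in 7.15% of all windows, a D-box in 0.938%, a RORE in 2.61% and an AP-1 site in 7.81%. The windows of Dbp, Nr1d1 and Nr1d2 held no match to the 3 clock motifs, which says only that these letters are not in these windows. Among called genes with a window, AP-1 letters were present for 8 of 39 higher and 2 of 32 lower genes, beside 7.07% of tested genes, and E-box letters for 8 of 39 higher and 2 of 32 lower genes, beside 11.8% of tested genes. These are matches of letters, and no test was run on them.

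Dbp, an output factor of the clock (chr7:45354512-45359627), had the largest change of the list. Its level was 20.4, 52 and 115 CPM (lowest, median and highest) in brushed nZnO mice, against 4.35, 12.4 and 21.1 CPM in intact nZnO mice. 1 brushed mouse lay within the intact range, brushed replicate 4 was far above the others, and the log2 fold change was 2.27 ± 0.35, adjusted p = 0.0029. Per3, a period protein, was at 14, 22 and 33 CPM (lowest, median and highest) in brushed nZnO mice, against 2.41, 5.66 and 11.8 CPM in intact nZnO mice (log2 fold change 1.71 ± 0.27, from a gene that entered through the brushed mice alone). Tef, a factor related to Dbp, was at 23.1, 41.8 and 62 CPM (lowest, median and highest) in brushed nZnO mice, against 10.1, 19.1 and 25.6 CPM in intact nZnO mice, with 2 mice of each group overlapping (log2 fold change 1.18 ± 0.21, adjusted p = 0.00851). The repressors changed less. Nr1d1 averaged 26.8 ± 5.92 CPM in brushed and 14.1 ± 5.53 CPM in intact nZnO mice (log2 fold change 0.94) and Nr1d2 averaged 57.1 ± 12.4 CPM in brushed and 33.8 ± 11.7 CPM in intact nZnO mice (log2 fold change 0.80).

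Arntl, which encodes BMAL1 (chr7:112806152-112914735), went the other way. It was at 11.3, 16.5 and 31.7 CPM (lowest, median and highest) in brushed nZnO mice, against 20, 36.6 and 45.1 CPM in intact nZnO mice, with 3 mice of each group overlapping (log2 fold change −1.07 ± 0.19, adjusted p = 0.00851). The members not called include Clock (log2 fold change −0.30, adjusted p = 0.129), Nfil3, which competes with DBP for D-boxes (−0.55, adjusted p = 0.145), Cry2 (0.62, adjusted p = 0.182) and Per1 (0.92, adjusted p = 0.272). The hour at which skin was collected is not given in the sources used here, so brushing and the hour of collection cannot be told apart for these genes. Other groups show how widely Dbp ranged. Intact saline mice (pools 1 and 3) and intact nTiO2 mice (pools 2 and 3) shared no pool with the nZnO mice. Naive mice lay in pools 1, 2 and 5 (4, 4 and 1 mice), and the other groups given here in pools 4 and 5. Material and pool therefore cannot be told apart for the intact saline and intact nTiO2 mice. Its median at 7 d was 55.7 CPM in brushed nAg and 54.9 CPM in brushed nTiO2 mice, against 15 CPM in intact nAg and 8.48 CPM in intact nTiO2 mice. At 7 d it was 20.8 CPM in mice brushed and given saline, 18.7 CPM in mice only brushed and 9.69 CPM in intact saline mice. In naive mice, whose group name gives no time, the Dbp median was 87 CPM.

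**Figure D2:**
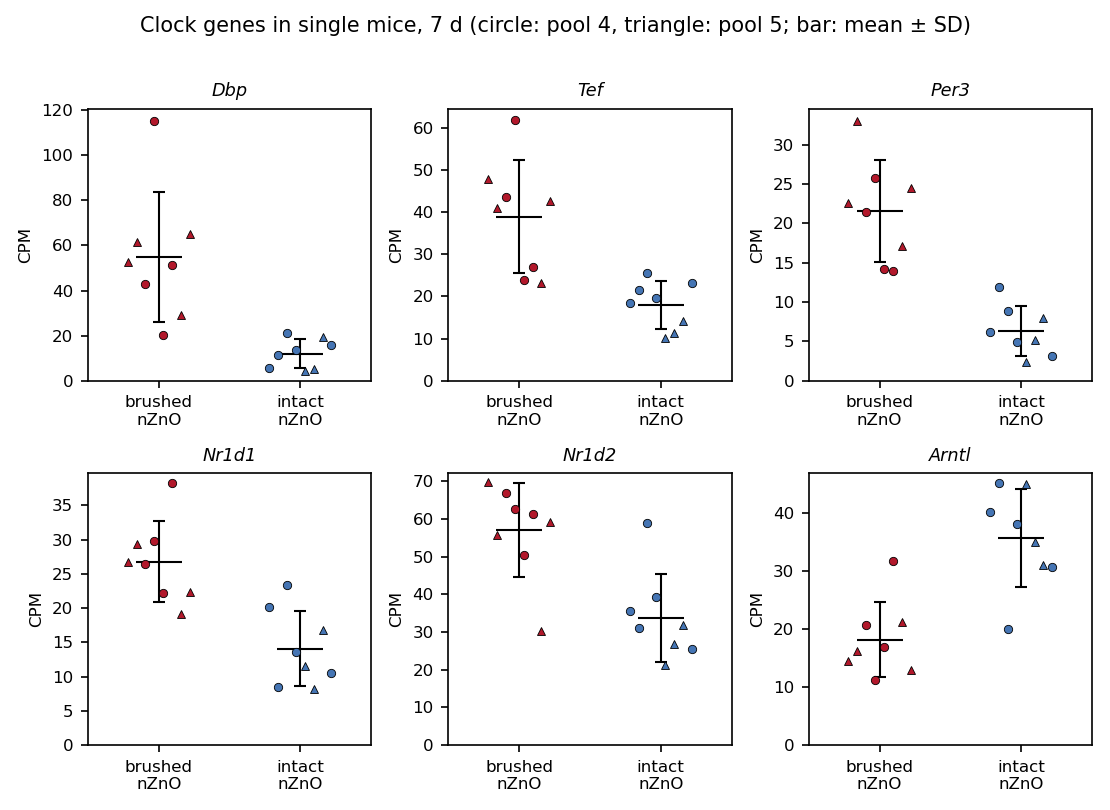
Level of the 6 called clock genes in each mouse at 7 d, in CPM on a linear axis from 0, for brushed nZnO (left, red) and intact nZnO (right, blue); circles are mice of pool 4, triangles mice of pool 5, and bars the mean ± SD of 8 mice. Dbp, Tef, Per3, Nr1d1 and Nr1d2 lie higher and Arntl lower in brushed skin, in mice of both pools.

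Cebpb and Sdc4 changed in opposite directions, and in both the groups were apart, narrowly for Cebpb. Cebpb, a transcription factor of epidermal differentiation and inflammation (chr2:167530835-167532338), was at 186, 237 and 501 CPM (lowest, median and highest) in brushed nZnO mice, against 137, 149 and 186 CPM in intact nZnO mice (log2 fold change 0.81 ± 0.16, adjusted p = 0.0177). Within pools the value was 0.36 in pool 4, where it was not called, and 1.37 in pool 5, where it was. Brushed replicates 1, 2 and 8, all of pool 5, held 426 to 501 CPM, and the other 5 brushed mice 186 to 242 CPM. The call was lost without intact replicate 5 or 6. The median of intact nZnO mice was below the medians of intact saline mice (304 CPM), brushed saline mice (190.1 CPM) and naive mice (266 CPM), which were not tested against it. All intact saline mice lay in pools 1 and 3, so material and pool cannot be told apart for them. Naive mice lay in pools 1, 2 and 5 (4, 4 and 1 mice), and brushed saline mice in pools 4 and 5. Sdc4, a cell surface heparan sulphate proteoglycan of focal adhesions (chr2:164266025-164285807), was at 245, 299 and 363 CPM (lowest, median and highest) in brushed nZnO mice, against 375, 524 and 564 CPM in intact nZnO mice (log2 fold change −0.72 ± 0.11, adjusted p = 0.0029). Its median was 306 CPM in brushed saline mice, 306 CPM in intact saline mice and 384 CPM in naive mice, so that the intact nZnO mice had the highest median of these groups. The same limit of pools holds for these medians, which were not tested.

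The genes lower in brushed nZnO skin include regulators of transcription, translation and signalling in the epidermis and hair follicle. Nfib, a transcription factor of hair follicle stem cells, was at 217, 266 and 317 CPM (lowest, median and highest) in brushed nZnO mice, against 336, 368 and 432 CPM in intact nZnO mice, with no overlap (log2 fold change −0.51 ± 0.083, adjusted p = 0.00347). Cpeb2, a translational regulator, was also apart, with 32.8 to 40.8 CPM (median 34.5) in brushed nZnO mice and 43.2 to 60 CPM (median 54.6) in intact nZnO mice (log2 fold change −0.59 ± 0.092, adjusted p = 0.00296). Acsl4, the ligase that activates arachidonic acid, overlapped in 1 mouse of each group, with 25.2 to 45.5 CPM (median 35.4) in brushed nZnO mice and 43.3 to 78.7 CPM (median 60.9) in intact nZnO mice (log2 fold change −0.87 ± 0.13, adjusted p = 0.0029). Ado, a thiol dioxygenase, averaged 35.4 ± 11.1 CPM in brushed and 60.4 ± 13.2 CPM in intact nZnO mice (log2 fold change −0.83), and Paip1, a partner of the poly(A)-binding protein, averaged 26 ± 7.31 CPM in brushed and 52.6 ± 16.8 CPM in intact nZnO mice (log2 fold change −1.08). These 5 were called in every fit that left out 1 mouse.

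Other genes of this direction lost their call more often. Notch2, a Notch receptor (−0.88), Spry2, an inhibitor of receptor tyrosine kinase signalling (−1.08), Dpysl2, a cytoskeletal regulator (−1.07) and Btc, the EGF receptor ligand betacellulin (−0.59) were called in 10, 10, 7 and 7 of the 16 fits that left out 1 mouse. The hair follicle factor Sox9 (−0.36, adjusted p = 0.0445) and Gata3, a regulator of the inner root sheath (−0.48, adjusted p = 0.0361), were lower. Of 32 proliferation genes tested only Cenpf, a kinetochore protein, was called (−0.50), and the list's median was 0.004.

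The 2 largest falls were in genes of fuel use, and Ccdc152, which overlaps the selenoprotein gene Selenop on the other strand and is therefore uncertain, had a log2 fold change of −1.44 ± 0.33, adjusted p = 0.038. Pdk4, which closes pyruvate dehydrogenase to spare glucose, was at 2.82, 7.23 and 16.9 CPM (lowest, median and highest) in brushed nZnO mice, against 5.56, 20.9 and 91.3 CPM in intact nZnO mice (log2 fold change −2.17 ± 0.48, adjusted p = 0.0318). Ppp1r3c, a glycogen-targeting subunit of protein phosphatase 1, was at 5.32, 6.06 and 19.1 CPM (lowest, median and highest) in brushed nZnO mice, against 5.41, 24 and 65.7 CPM in intact nZnO mice (log2 fold change −2.09 ± 0.43, adjusted p = 0.0193). The groups overlapped for both, and in each the highest brushed mouse was replicate 2. With the summed level of muscle genes as a covariate, an alternative chosen after seeing the data, the log2 fold change was −1.05 for Pdk4 (adjusted p = 0.343) and −0.85 for Ppp1r3c (adjusted p = 0.228). In that fit 80 genes were called, 38 higher and 42 lower, and 53 of the 98 were among them.

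Transcripts of skeletal muscle, which can reach a skin biopsy from the panniculus carnosus beneath it, had negative fold changes throughout. Of 36 listed muscle genes 28 were tested (3 of them passed the filter through the intact mice alone). All 28 had a negative log2 fold change (median −1.76), 27 had an unadjusted p under 0.05, and 0 were called. Over all genes 7.9% were lower at that p and 0.349% were called lower. Of the 25 that entered through both groups, 24 had an unadjusted p under 0.05. Their summed level was 1074 to 20103 CPM (median 3106) in brushed nZnO mice and 1921 to 24999 CPM (median 9346) in intact nZnO mice. Acta1, the skeletal muscle actin, was at 26.6, 254 and 1927 CPM (lowest, median and highest) in brushed nZnO mice, against 131, 977 and 3073 CPM in intact nZnO mice, and the ranges overlapped widely. Brushed replicate 2 alone held 1927 CPM, while the next brushed mouse held 582 CPM. The part of muscle in the other results was not tested beyond the covariate fit, in which Cthrc1, Tnn, Mmp13, Crabp1, Dbp, Sdc4 and Cebpb stayed called, while Nr1d2 (0.0506), Cenpf (0.0566), Tlr7 (0.0844), Sox9 (0.0942), Btc (0.106), Rgs1 (0.121), Gata3 (0.136), Bmp1 (0.152), Il10rb (0.161), Mmp14 (0.174) and Thy1 (0.19) had an adjusted p above 0.05.

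**Figure D3:**
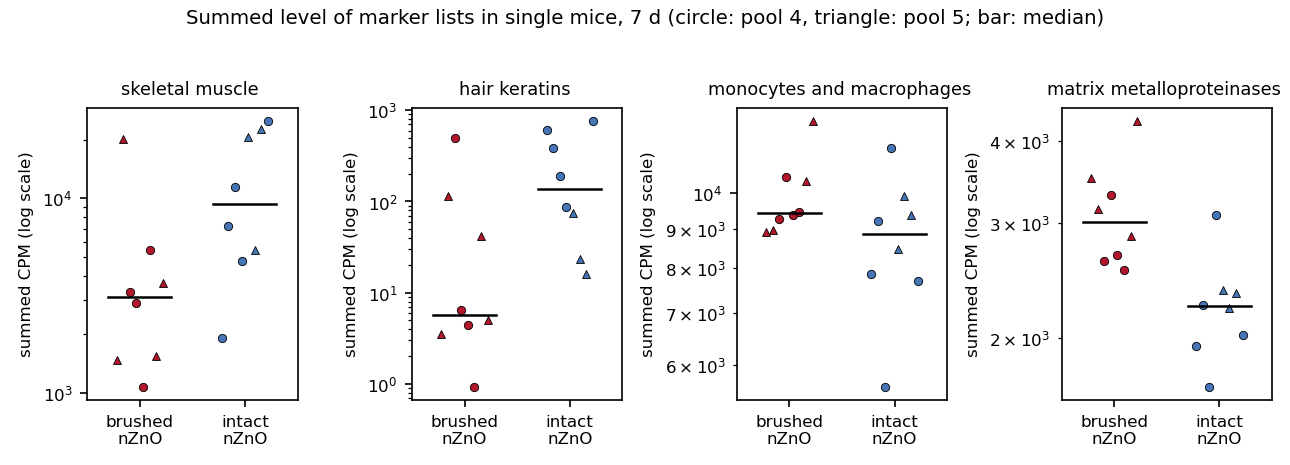
Summed level of 4 gene lists in each mouse at 7 d, in CPM on logarithmic axes, for brushed nZnO (left, red) and intact nZnO (right, blue); circles are mice of pool 4, triangles mice of pool 5, and bars the median of 8 mice. Muscle and hair keratin sums spread over more than a 10-fold range within each group and overlap between groups, and macrophage and metalloproteinase sums overlap between groups.

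Hair genes had a wide spread. Of 16 listed hair keratins 7 entered the test, all 7 through the intact mice alone, so that no direction is read from their values, and 0 were called. The summed level of the list was 0.932 to 500.1 CPM (median 5.74) in brushed nZnO mice and 15.9 to 762 CPM (median 138) in intact nZnO mice. All 12 tested genes of the inner root sheath and companion layer had negative fold changes (5 of the 12 entered through the intact mice alone), and Gata3 was the called one.

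Few inflammatory and immune genes were called, as was so over all genes (0.485% higher and 0.349% lower). A count of 0 in a short list therefore says little. Of 31 monocyte and macrophage genes, 27 had a positive log2 fold change (median 0.41), 14 were higher at an unadjusted p under 0.05 (7.32% of all genes), and 0 were called. Among the 30 that entered through both groups 26 were positive (median 0.40). At that p 13 of these 30 were higher and 1 lower (7.32% and 7.9% of all genes). The lowest p of the list belonged to Trem2, a receptor of tissue macrophages, with 47.3 to 208 CPM (median 93.6) in brushed nZnO mice and 30 to 66.3 CPM (median 50.8) in intact nZnO mice (adjusted p = 0.0594). Ly6c2, a marker of recruited monocytes, was at 11.5 to 49.4 CPM (median 35) in brushed nZnO mice and 4.45 to 36.1 CPM (median 9.22) in intact nZnO mice (adjusted p = 0.0643), and intact replicate 2 stood above the other intact mice. All 14 mast cell genes had positive values (median 0.36), led by the tryptase gene Tpsab1 with 33.8 to 167 CPM (median 74.2) in brushed nZnO mice and 18.9 to 67.6 CPM (median 34.2) in intact nZnO mice (log2 fold change 1.17 ± 0.28, adjusted p = 0.0532). Of these 14, 1 entered through the brushed mice alone, and the 13 that entered through both groups had a median of 0.35. Of 22 tested interferon-stimulated genes 5 entered through the brushed mice alone, and 0 were called. Of the 17 that entered through both groups, 16 had a positive log2 fold change (median 0.44). At an unadjusted p under 0.05, 5 of these 17 were higher and 0 lower.

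Rgs1, a regulator of chemokine receptor signalling in leukocytes, averaged 44.4 ± 17.8 CPM in brushed and 19.3 ± 7.97 CPM in intact nZnO mice (log2 fold change 1.11 ± 0.23, adjusted p = 0.0236). Cd40, the costimulatory receptor of antigen-presenting cells, was at 7.45, 9.3 and 13 CPM (lowest, median and highest) in brushed nZnO mice, against 1.06, 3.78 and 4.51 CPM in intact nZnO mice (log2 fold change 1.41 ± 0.23, from a gene that entered through the brushed mice alone). Tlr7, the receptor for single-stranded RNA, averaged 20.6 ± 4.03 CPM in brushed and 10.9 ± 3.61 CPM in intact nZnO mice (log2 fold change 0.84), and Il10rb, a shared chain of the interleukin 10 receptor family, averaged 77.9 ± 13.1 CPM in brushed and 53.3 ± 9.54 CPM in intact nZnO mice (log2 fold change 0.47). The calls of Tlr7 and Il10rb held in 6 and 4 of the 16 fits that left out 1 mouse. Of the neutrophil list, 0 of 12 genes were called and the median was 0.28. Of the 10 that entered through both groups, 5 were higher and 1 lower at an unadjusted p under 0.05. Over all genes the shares were 7.32% and 7.9%.

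In the epidermis, 1 of 16 wound-edge keratins and alarmins was called. Sprr2d, a cornified envelope protein whose near-identical relatives can share its reads, was at 112, 187 and 361 CPM (lowest, median and highest) in brushed nZnO mice, against 66.3, 84.9 and 156 CPM in intact nZnO mice (log2 fold change 0.94 ± 0.21, adjusted p = 0.0353). Its call held in 8 of the 16 fits that left out 1 mouse. Krt6a and Krt16, keratins of the wound edge, had log2 fold changes of 0.28 and 0.48 (adjusted p = 0.426 and 0.303). Lists of basal keratinocytes (12 genes, median −0.066) and of suprabasal and cornified layers (46 genes, median −0.10) had 0 called genes. Over all genes 0.485% were called higher and 0.349% lower. The antimicrobial peptide genes Defb1 and Defb6 had log2 fold changes of 0.27 ± 0.18 and −0.28 ± 0.13 (adjusted p = 0.5 and 0.314).

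No zinc reporter was called between brushed and intact nZnO skin at 7 d. Mt1, a metallothionein induced by zinc, was at 388, 439.6 and 502 CPM (lowest, median and highest) in brushed nZnO mice, against 319.7, 426 and 568 CPM in intact nZnO mice. The brushed range lay within the wider intact range, with 1 intact mouse above and 3 below all brushed mice. The log2 fold change was 0.043 ± 0.11 (adjusted p = 0.901). Mt2 was at 172 to 276 CPM (median 197) in brushed nZnO mice and 162 to 275 CPM (median 220.1) in intact nZnO mice (−0.092 ± 0.12, adjusted p = 0.771), and the zinc exporter gene Slc30a1 had a log2 fold change of 0.00023 ± 0.11. Mt4, the metallothionein of differentiating epidermis, was at −0.73 ± 0.33 (adjusted p = 0.306). Of 20 tested metallothioneins and zinc transporters, 0 were called, 11 had a positive value and 9 a negative one, and the median was 0.0045. Both groups received nZnO, so these values compare brushed with intact skin and not nZnO with its absence.

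Respiratory chain genes had small negative fold changes. All 35 tested nuclear genes of complex I had negative log2 fold changes (median −0.17), 17 with an unadjusted p under 0.05, and 0 were called. Over all genes 7.9% were lower at that p and 0.349% were called lower. Ndufb5, Ndufb8 and Ndufb9 were at −0.26, −0.16 and −0.23 (adjusted p = 0.143, 0.361 and 0.164), and Rab5if was at −0.068 (adjusted p = 0.744). Of 40 genes of complexes II to V, all but Sdhd were negative (median −0.17), with muscle forms such as Cox8b and Cox7a1 at −1.61 and −1.52. Of 7 mitochondrially encoded genes, mt-Nd5 was called, with 230.1 to 333 CPM (median 282) in brushed nZnO mice and 289.6 to 453 CPM (median 386) in intact nZnO mice (log2 fold change −0.48 ± 0.11, adjusted p = 0.0387). With the muscle level as a covariate its log2 fold change was −0.27 (adjusted p = 0.338). Mpp1, a membrane scaffold protein of blood cells, had a log2 fold change of 0.19 ± 0.12 (adjusted p = 0.458).

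**Figure D4:**
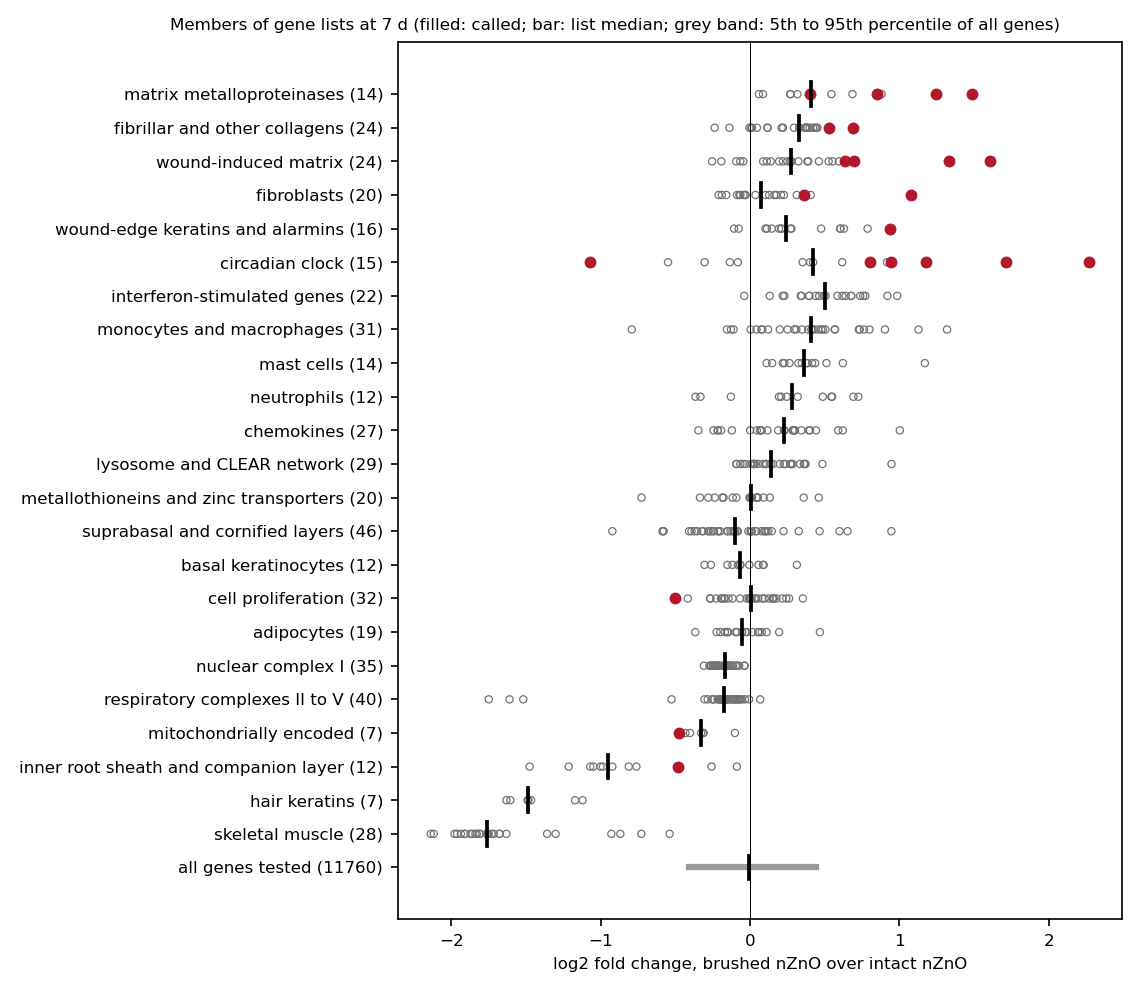
Log2 fold change of brushed over intact nZnO skin for each tested member of 23 gene lists at 7 d, with the number of tested members in brackets; filled points are called genes, open points are not called, black bars are list medians, and the grey band spans the middle 90% of all 11760 genes. Called genes on the right lie in the metalloproteinase, collagen, wound-induced matrix, fibroblast, wound-edge and clock lists, and muscle, hair keratin and inner root sheath lists lie to the left of 0, where all hair keratins shown entered through the intact mice alone.

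Whether brushing acted differently under another material was asked by setting its effect against that under nAg at 7 d, in 8 brushed and 8 intact nAg mice of the same pools. Of 12164 genes tested for a difference between the effects, 0 were called (0%), by edgeR and by DESeq2, with 667 and 597 genes at an unadjusted p under 0.05. Of the clock genes called under nZnO, Dbp, Per3 (whose call under nZnO is not read) and Tef were called in the nAg pair too, where Per3 had an effect of 1.32 ± 0.20. In the nAg pair 40 of 11942 genes were called, and Arntl, Nr1d1 and Nr1d2 were not (adjusted p = 0.0608, 0.103 and 0.464). Dbp had an effect of 2.27 ± 0.35 under nZnO and 1.67 ± 0.25 under nAg, and Arntl −1.07 ± 0.19 and −0.95 ± 0.22. Mmp13 was at 0.85 ± 0.14 under nZnO and 1.07 ± 0.24 under nAg. Cebpb had an effect under nZnO of 0.81 ± 0.16 and under nAg of 0.068 ± 0.19, and the difference of 0.72 ± 0.26 had an adjusted p of 0.824. Fbn2 showed 1.33 ± 0.19 and 0.094 ± 0.46, with a difference of 1.16 ± 0.52 (adjusted p = 0.899), and Sdc4 a difference of −0.42 ± 0.16 (adjusted p = 0.857). The standard errors of these differences leave room for sizeable ones, so the absence of calls does not show that the effects were equal. Among genes of at least 10 CPM on average, the 5 with the lowest p were Rpl14-ps1 (1.34 ± 0.30), Abca12 (−0.65 ± 0.15), Rpl14 (−0.46 ± 0.11), Lfng (0.93 ± 0.23) and Wdr82 (−0.52 ± 0.13), and a pseudogene such as Rpl14-ps1 shares sequence with its parent gene, so its value is uncertain.

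Set against the brushing effect under nZnO at 24 h, 719 of 12070 genes (5.96%) differed, 368 of them with a higher effect at 7 d and 351 with a lower one. With pool in the fit the 24 h effect rested on pool 2, the only one with mice of both 24 h groups (4 each), and without pool the count was 112 (0.928%), with 101 genes shared. Of the 98 genes called at 7 d, 22 differed from 24 h with pool and 12 without. Matrix genes went both ways. Of 25 tested wound-induced matrix genes, 4 had a higher effect at 7 d and 3 a lower one with pool (2 and 1 without), and the median difference was −0.21. Lower at 7 d were Prg4, the lubricant proteoglycan 4 (−2.51, adjusted p = 0.000259), Thbs1 (−0.87, adjusted p = 0.0435) and Tgfbi (−0.83, adjusted p = 0.00278), and of the collagen genes Col18a1 (−0.88, adjusted p = 0.00585). Of these 4 only Prg4 was called without pool, and of 24 collagen genes 2 had a higher effect at 7 d with pool and 0 without. Cthrc1 had an effect of 1.60 ± 0.24 at 7 d and −0.26 ± 0.41 at 24 h (difference 1.86 ± 0.50, adjusted p = 0.0222). Tnn had 0.95 ± 0.14 at 7 d and −0.87 ± 0.33 at 24 h (difference 1.82 ± 0.34, adjusted p = 0.00124), and C1qtnf3, a secreted adipokine-like protein, 1.17 ± 0.21 and −1.95 ± 0.51 (difference 3.11 ± 0.55, adjusted p = 0.000558). Crabp1 and Mmp13 were not called as different between the times (adjusted p = 0.294 and 0.709).

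Of 20 metallothioneins and zinc transporters, 2 differed between the times with pool and 0 without. Mt1 had an effect of 0.043 ± 0.11 at 7 d and 0.97 ± 0.20 at 24 h (difference −0.93 ± 0.23, adjusted p = 0.013), and Mt2 of −0.092 ± 0.12 and 1.01 ± 0.25 (difference −1.11 ± 0.27, adjusted p = 0.0131). Without pool the adjusted p was 0.105 for Mt1 and 0.0926 for Mt2. Krt6a, called higher at 24 h, had an effect of 0.28 ± 0.16 at 7 d and 2.16 ± 0.35 at 24 h. Sdc4 was at −0.72 ± 0.11 at 7 d and 0.13 ± 0.18 at 24 h (difference −0.85 ± 0.22, adjusted p = 0.0145 with pool and 0.0196 without). Among clock genes, Tef, Per3 and Arntl were also called at 24 h, where 1232 of 11699 genes were called. Their effects there were 0.87 ± 0.23, 1.21 ± 0.34 and −1.74 ± 0.30. Dbp (1.18 ± 0.40, adjusted p = 0.0631) and Nr1d2 (0.37 ± 0.25, adjusted p = 0.368) were not called at 24 h. Nr1d1 had an effect of −0.19 ± 0.26 at 24 h, and its difference between the times was 1.13 ± 0.34 (adjusted p = 0.0442 with pool and 0.2 without). The 5 genes of lowest p at 10 CPM or more on average, Alox12e (3.61 ± 0.33), Clca3a2 (2.72 ± 0.25), Endou (−1.49 ± 0.16), Ccl27a (2.58 ± 0.30) and Mfap4 (2.57 ± 0.30), had effects at 7 d between −0.21 and 0.35.

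**Figure D5:**
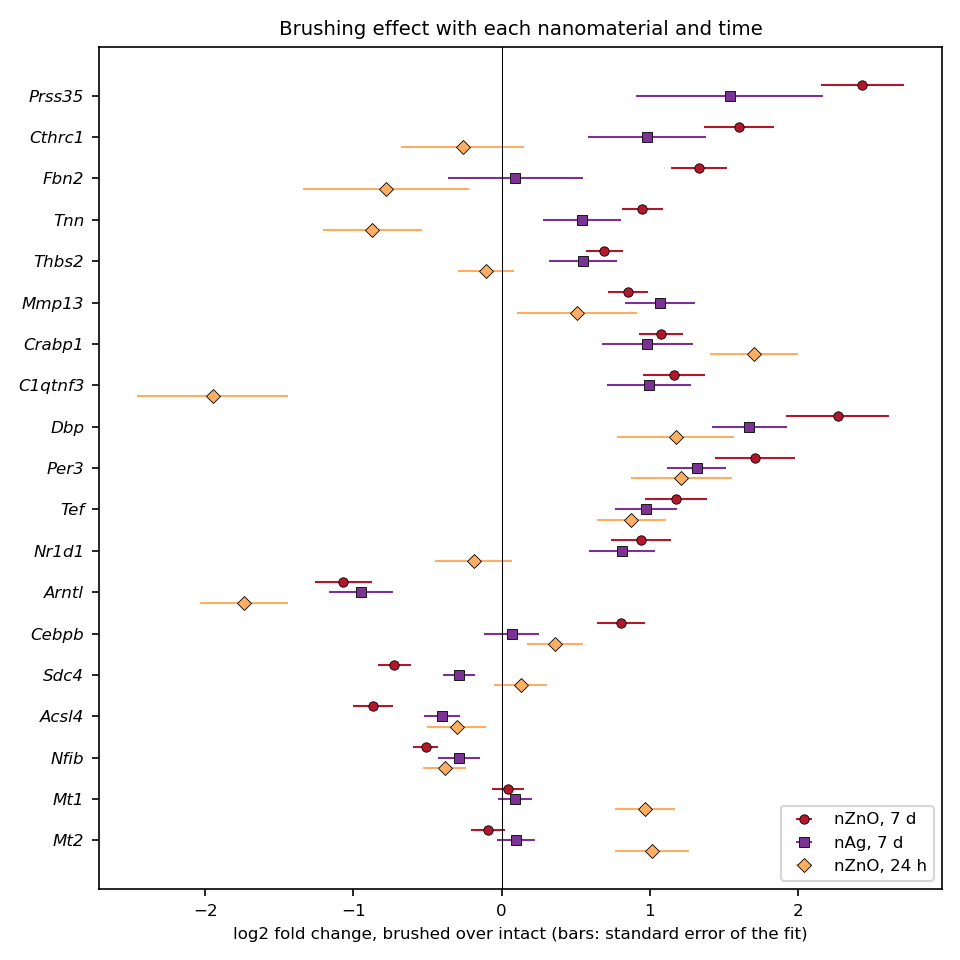
Log2 fold change of brushed over intact skin for 19 genes under nZnO at 7 d (red circles), nAg at 7 d (purple squares) and nZnO at 24 h (orange diamonds), with the standard error of each fit as bars. Each pair of groups has its own 16 mice, but with pool in the fit the 24 h effects rest on pool 2 (4 brushed and 4 intact mice). Prss35 has no value for the 24 h pair. Clock genes lie on the same side of 0 under nZnO and nAg at 7 d, Cthrc1, Tnn and C1qtnf3 lie right of 0 at 7 d and left of 0 at 24 h, and Mt1 and Mt2 lie near 0 at 7 d and near 1 at 24 h.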

How the data were processed

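Each library held one mouse's upper back skin, and pools of barcoded mice were sequenced together. The deposited values are UMI counts per gene, made by the authors with STAR and Drop-seq tools on GRCm39, after FastQC, MultiQC, Trimmomatic and Picard as named in the submitters' processing notes. The deposited sample information gives the RNA integrity number, a score, and the pool, and 0 columns of the count table were left unmapped. Whether counting used strand is not given in the sources used here, so genes that overlap another gene on the other strand (among them Ccdc152 with Selenop, Nr1d1 with Thra, Dbp with Sphk2, and mt-Nd5 with mt-Nd6) are uncertain.

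Genes with a count above 5 in at least 6 of 8 mice of a group were tested with edgeR 4.0.16 (quasi-likelihood, TMM scaling, terms for group and pool) in R 4.3.3, with Benjamini-Hochberg adjustment over all genes tested. The threshold was an adjusted p below 0.05 with a log2 fold change of 0.33 or more in size. Values after ± are standard errors for log2 fold changes and SDs for levels (n = 8 mice a group). CPM is a gene's count per 1000000 counts of the mouse. Single library measures were tested by exact permutation. No 2 mice of the 16 had identical counts. The fit was tested on simulated data. DESeq2 1.42.0 and limma 3.58.1 served as alternatives, besides other scaling, filters, covariates, single pools and leaving out each mouse.

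The comparison and gene lists were chosen with earlier results of these data known. The rule for named genes took, at 10 CPM or more, the 10 called genes that rose most and the 10 that fell most, for each list its 3 lowest p, for each comparison of effects its 5 lowest p, and genes the study names or that sense zinc. Other genes named (Mmp14, Tnn, Tnc, Ccn5, Fkbp10, Bmp1, Mfap2, Nr1d1, Nr1d2, Cd40, Tlr7, Nfib, Cpeb2, Clock, Cry2, Per1, Nfil3, Krt6a, Krt16, Krt14, Col1a1, Acta1, Ckm, Mylpf, Prg4, Thbs1, Tgfbi, Col18a1) lie outside it and were chosen after their values were seen. The sequences are RefSeq promoter windows.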

Additional observations from a re-analysis of the deposited data

Results flagged for a closer look

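Of 140 groups of values examined, 12 had a mouse far from the others of its group (gap to the nearest mouse over the group's range above Dixon's 95% critical value), where chance gives about 1 in 20. Brushed replicate 2 accounted for 6 of these, with a share of 0.585 for Pdk4, 0.71 for Ppp1r3c, 0.708 for Acta1, 0.754 for Ckm, 0.74 for Mylpf and 0.533 for the RNA integrity number. It was the highest brushed mouse in all 6. Brushed replicate 1 stood apart for its total count (0.787) and Dpysl2 (0.551), replicate 3 for Mt4 (0.658), replicate 4 for Dbp (0.53) and replicate 8 for Trem2 (0.678). Intact replicate 2 stood apart for Ly6c2 (0.74).

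The brushing effect under nZnO differed between 7 d and 24 h for 719 genes, by edgeR's test of the difference with pool in the fit. Differences are log2 fold changes at 7 d minus those at 24 h. Matrix genes went both ways: of 25 wound-induced matrix genes 4 were higher and 3 lower at 7 d (median difference -0.21). Among the genes named, those higher at 7 d were C1qtnf3 (3.11), Prss35 (3.08), Mfap4 (2.57), Fbn2 (2.1), Mmp11 (1.95), Cthrc1 (1.86), Tnn (1.82), Mfap2 (1.68), Thbs2 (0.795) and Thy1 (0.725). Among immune and epidermal genes the same direction was seen for Alox12e (3.61), Clca3a2 (2.72), Ccl27a (2.58), Rgs1 (1.87) and Defb6 (1.13), and also for Nr1d1 (1.13). Prss35 (3.08), Fbn2 (2.1) and Cd40 (1.65) were higher at 7 d too. They entered the 7 d comparison through the brushed mice alone, so their differences are a description and their calls are not read. Lower at 7 d than at 24 h were Endou (-1.49), Paip1 (-1.2), Mt2 (-1.11), Mt1 (-0.928), Sdc4 (-0.854) and Cenpf (-0.743). Without pool in the fit 112 genes differed, and Clca3a2 (adjusted p = 0.0616), Rgs1 (0.0618), Mmp11 (0.0677), Mt2 (0.0926), Mt1 (0.105), Cenpf (0.105), Thy1 (0.111), Thbs2 (0.112), Prss35 (0.118), Nr1d1 (0.2) and Defb6 (0.49) were no longer called.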

How the results depend on the processing

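The 98 called genes became 201 and 224 with DESeq2 (with and without pool), 169 with limma voom, 783 with no filter on low counts, 185 with the RNA integrity number as a further term, 228 at an adjusted p under 0.10, 14 in pool 5 alone and 0 in pool 4 alone. The cause was not tested, except that single pools hold fewer mice. Leaving out 1 mouse gave 41 (without brushed replicate 4) to 258 calls (without brushed replicate 2), with 42, 56, 163 and 193 without intact replicates 5, 6, 2 and 4 and 64 without brushed replicate 8. Other scaling, no pool, a filter in each group, all 7 d mice together, no minimum fold and the muscle covariate gave 79 to 111. The 1790 genes of unadjusted p under 0.05 became 3084 with no filter and 1008 in pool 4 alone, and 1517 to 1931 with 1 mouse left out. The difference from nAg gave 2 calls with no filter, and that from 24 h gave 1259 with no filter and 112 without pool. The mitochondrial share lost its call on the log2 scale (-0.31, adjusted p = 0.0555).

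Among named genes, values near 0 changed sign in some settings, and those of Acta1 and Ckm did so with the muscle covariate. Mt1 was -0.030 in pool 5 alone and ranged over -0.0092 to 0.11 with 1 mouse left out (-0.0092 and -0.0070 without intact replicates 2 and 4). Mt2 was 0.016 in pool 4 alone and 0.013 with the muscle covariate, Acta1 and Ckm were 0.032 and 0.087 with that covariate, and Defb1 was -0.038 in pool 5 alone. Slc30a1 was -0.030 (edgeR) and -0.031 (DESeq2) without pool, -0.0018 with voom, -0.021 with all 7 d mice, -0.13 in pool 4 alone, -0.036 with the RNA integrity number, and -0.042 to 0.058 with 1 mouse left out. No paired analysis was possible because the running numbers of the mice pair no mice across groups. No list median for hair keratins could be had without intact replicates 1, 2, 5 or 8, since none of them then entered the test. Genes of a few CPM rest on few UMIs in each mouse.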
